A study of Homo sapiens with 12 samples.

Results

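EBF1 was introduced into L-428 and L-1236 cells, 2 established lines that derive from Hodgkin lymphoma, and the genes described here are those whose signal moved the same way in both. A row of the array table was taken as a member where all 3 tGFP/EBF1 arrays lay above all 3 tGFP arrays in each line, or below them in each line. Of 20546 rows with a gene symbol, 927 met this rule, 472 higher (2.30%) and 455 lower (2.21%) with EBF1. The rule used the measured values but no size limit, so changes under 2-fold are included.

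EBF1 is a zinc-finger transcription factor that works with E2A and PAX5 to establish and keep B-cell identity. It binds DNA as a dimer at a palindromic site, opens chromatin at B-cell genes such as those of the B-cell receptor, and represses genes of other lineages. Hodgkin and Reed-Sternberg cells descend from germinal centre B cells but have lost most of the B-cell programme, and they secrete and respond to many cytokines and chemokines.

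The 4 groups were L-428 with tGFP only, L-428 with tGFP/EBF1, L-1236 with tGFP only and L-1236 with tGFP/EBF1, with 3 arrays each. tGFP, a green fluorescent protein, marked the transduced cells, and EBF1 was encoded on the same transcript through an internal ribosome entry site. All cells were kept in culture for 8 days after transduction and sorted for tGFP, and their total RNA was amplified and hybridised to whole-transcript arrays. The samples of a group are described in the labels as independent, without saying what separated them, so p-values measure the spread between these samples only. Each line is a single source, so the data describe these 2 lines.

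The promoters of members that rose strongly, and of CD79A, a textbook EBF1 target, are shown so that the EBF1 palindrome can be looked for in them. Each run holds the 250 bases before the RefSeq gene start (assembly GRCh38.p14). FCER2 and SEMA7A each have 2 entries in the RefSeq table, of which one is shown. The bases of FCER2 are chr19:7702132-7702381 and those of SEMA7A are chr15:74433959-74434208, both on the minus strand, while CCL22 at chr16:57358533-57358782 and CD79A at chr19:41877029-41877278 lie on the plus strand.
FCER2: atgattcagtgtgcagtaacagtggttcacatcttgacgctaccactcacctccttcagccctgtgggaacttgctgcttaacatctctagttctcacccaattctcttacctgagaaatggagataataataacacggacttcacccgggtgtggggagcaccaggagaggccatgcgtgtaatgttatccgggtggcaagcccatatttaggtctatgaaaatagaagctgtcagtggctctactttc
SEMA7A: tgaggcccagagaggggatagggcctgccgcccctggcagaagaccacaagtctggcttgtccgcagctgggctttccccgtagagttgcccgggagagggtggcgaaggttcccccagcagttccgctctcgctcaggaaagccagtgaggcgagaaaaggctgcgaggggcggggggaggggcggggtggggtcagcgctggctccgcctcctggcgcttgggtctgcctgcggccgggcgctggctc
CCL22: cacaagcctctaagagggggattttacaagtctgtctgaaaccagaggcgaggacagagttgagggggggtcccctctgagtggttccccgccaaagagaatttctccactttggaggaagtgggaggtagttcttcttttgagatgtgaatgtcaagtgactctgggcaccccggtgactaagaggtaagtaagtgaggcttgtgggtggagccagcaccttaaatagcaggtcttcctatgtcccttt
CD79A: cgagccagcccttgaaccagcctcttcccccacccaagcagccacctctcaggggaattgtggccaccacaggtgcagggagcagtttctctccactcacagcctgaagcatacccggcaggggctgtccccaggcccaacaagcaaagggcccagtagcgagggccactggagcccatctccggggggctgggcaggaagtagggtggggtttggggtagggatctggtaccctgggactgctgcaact
Neither the palindrome TCCCNNGGGA nor its core CCCNNGGG, which is part of the palindrome, was found in the table's 300-base entries (250 bases before the start and 50 after) of FCER2, SEMA7A, CCL22 and CD79A. Both motifs are their own reverse complement, so a search of one strand reads both. Only these exact letters were searched. Their absence says nothing about imperfect sites within the window or about binding elsewhere.

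The promoter entries of 16 members, 5 higher and 11 lower, do hold the palindrome. Those with the largest mean effects, 3 lower and 2 higher, were chosen after their values were seen and are shown by 60-base windows before the start, with the palindrome in capitals. They are TRIM14 (chr9:98119223-98119282, minus strand), SPRED2 (chr2:65432684-65432743, minus strand), NSUN3 (chr3:94062904-94062963, plus strand), ANK2 (chr4:112705562-112705621, plus strand) and DRC8 (chr1:244970272-244970331, plus strand). ANK2 has a second start whose entry also holds the palindrome.
TRIM14: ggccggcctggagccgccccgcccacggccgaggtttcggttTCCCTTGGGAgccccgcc
SPRED2: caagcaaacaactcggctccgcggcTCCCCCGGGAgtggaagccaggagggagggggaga
NSUN3: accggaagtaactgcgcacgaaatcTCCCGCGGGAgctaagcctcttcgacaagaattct
ANK2: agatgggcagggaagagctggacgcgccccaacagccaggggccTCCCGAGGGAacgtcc
DRC8: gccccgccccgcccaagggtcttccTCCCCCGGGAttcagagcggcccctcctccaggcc
On the log2 scale, as means over both lines, TRIM14 (-0.55), SPRED2 (-0.47) and NSUN3 (-0.36) fell, whereas ANK2 (0.40) and DRC8 (0.31) rose. A second, dimmer row of DRC8 did not pass (0.035; limma, adjusted p = 0.807). The palindrome stood in 258 of 14230 genes with a promoter entry (1.81%), in 5 of 357 higher members (1.40%) and in 11 of 337 lower members (3.26%). The core stood in 27.0% of all these genes, 30.0% of higher members and 32.9% of lower members. These shares are descriptions of the letters within the windows.

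Array medians lay between 7.19 and 7.31 on the log2 scale, and Pearson correlations within groups over rows with a symbol between 0.993 and 0.998. Replicate 3 of L-428 tGFP and replicate 1 of L-1236 tGFP/EBF1 stood apart, with interquartile ranges of 2.28 against 2.49 and 2.47, and 2.17 against 2.31 and 2.26, in their groups. Replicate 3 of L-428 tGFP was the lowest of its group in 70.8% of higher members and 77.6% of lower members, against 46.9% of all rows. Without both arrays 937 rows were higher members and 1345 lower, a rule that is easier to meet with fewer arrays. The number of arrays limits the precision, and no background signal was used. In these bulk samples, fewer cells of a kind and less RNA per cell cannot be told apart.

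The transduced gene was read by a row that lists both EBF1 and PDGFRB. In L-428 this row read 8.62, 8.37 and 8.34 with tGFP and 12.96, 12.98 and 12.93 with tGFP/EBF1 (replicates 1, 2 and 3), and in L-1236 it read 7.24, 7.13 and 7.16 with tGFP and 13.07, 13.27 and 13.10 with tGFP/EBF1. All tGFP/EBF1 arrays lay far above the controls of their line, at 12.96 and 13.15 on average. The mean effect over both lines, always given as tGFP/EBF1 minus tGFP, was 5.24 ± 0.053 (log2, SE; limma, adjusted p = 9.3e-22). Markers of other cell types were checked. Of 8 T and NK cell markers 1 rose (CD3D) and 0 fell, of 6 myeloid markers 1 rose (CSF1R) and 0 fell, and of 8 stromal, endothelial or epithelial markers 0 rose and 0 fell. The mean over the T and NK cell markers lay between 6.68 and 6.79 on L-428 tGFP arrays and between 6.68 and 6.73 with EBF1. In L-1236 it lay between 6.72 and 6.76 with tGFP and between 6.76 and 6.88 with EBF1, and its part in the results was not tested. Of 7 B-cell markers 4 rose (FCER2, CD40, CD79A and CD79B) and 1 fell (CD22), while MS4A1 and PAX5 did not pass the test. In L-428 by itself CD79B (0.056) and CD22 (0.015) did not pass, and in L-1236 they passed at 0.26 and -0.40 (limma). The effects of PAX5 were 0.20 in L-428 and -0.14 in L-1236 (difference; limma, adjusted p = 0.0246).

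The mean EBF1 effect was tested with limma over all rows with a symbol, and a gene is said to have risen or fallen where its adjusted p was 0.05 or less. At that limit 893 rows were higher (4.35%) and 983 lower (4.78%). Of the higher members 389 passed and 83 did not, and of the lower members 403 passed and 52 did not. A pass of the mean effect is not a pass in each line. With each line tested by itself, 260 of the 927 members passed in both lines (limma). A further 121 passed in L-428 only, 269 in L-1236 only and 277 in neither. Of all 20546 rows 305 passed in both lines and 17978 in neither. Since the members were chosen on the same values, these counts are no evidence on the members. A further 1084 rows passed without being members. With a 2-fold limit 6 rows were higher (0.0292%) and 1 was lower (0.00487%), and all of them were members: EBF1, FCER2, SLC22A4, SEMA7A, CCL22 and MRAP2 above, CRLF2 below. Most members changed little. The mean effect was under 1.5-fold in 439 higher members (93.0%) and 425 lower members (93.4%), and its median size was 0.23 and 0.25 on the log2 scale.

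**Figure D1:**
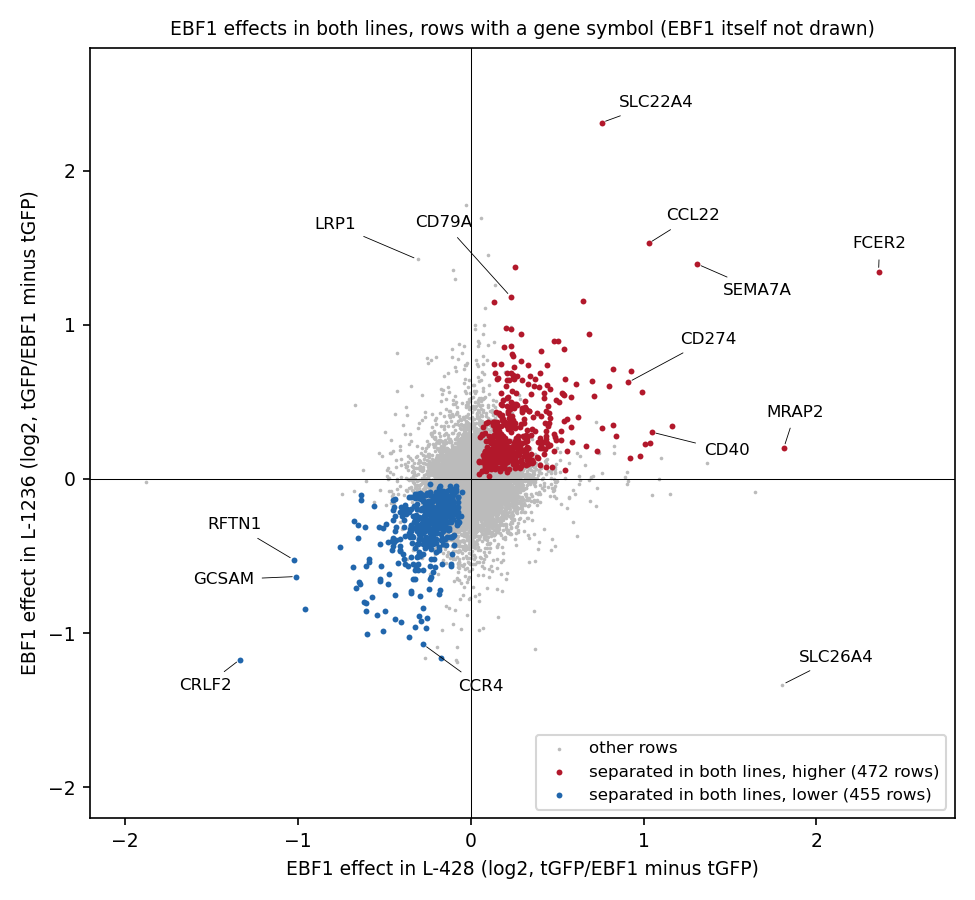
EBF1 effect in L-428 (horizontal axis) and in L-1236 (vertical axis), both as log2 differences of group means, 1 point per row with a gene symbol. The 472 higher members (red) and 455 lower members (blue) fill the upper right and lower left. FCER2, SEMA7A, CCL22 and CRLF2 lie far out in both lines, MRAP2 and CD79A mainly in one, and SLC26A4 and LRP1 moved in opposite directions.

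Separation in one line was set against separation in the other, since the lines share no array. In L-428 2320 rows were separated higher (11.3%) and 1434 lower (6.98%), and in L-1236 2389 were separated higher (11.6%) and 3105 lower (15.1%). Of the rows higher in L-428, 20.3% were also higher in L-1236, which was 19.8% of the L-1236 list, and 17.1% were lower there. Of the rows lower in L-428, 31.7% were also lower in L-1236, or 14.7% of that list, and 8.58% were higher. Separation in opposite directions was seen in 519 rows, 396 of them higher in L-428 and lower in L-1236. Over all rows except EBF1 the effects in both lines had a Pearson correlation of 0.21 and a Spearman correlation of 0.094. The rows share arrays and are not independent replicates.

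**Figure D2:**
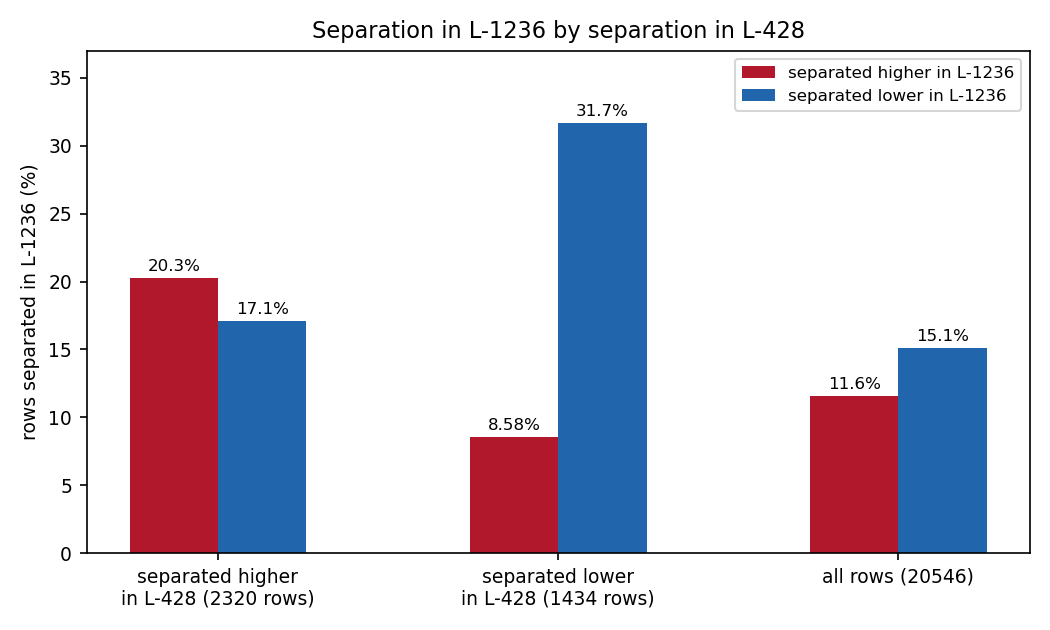
Share of rows separated higher (red) or lower (blue) in L-1236, in percent, for rows separated higher in L-428, rows separated lower in L-428 and all rows. Of the rows lower in L-428, 31.7% were also lower in L-1236, against 15.1% of all rows.

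Among B-cell surface proteins FCER2 stood out. FCER2 encodes CD23, the low-affinity IgE receptor of mature B cells. In L-428 it read 8.47, 8.52 and 8.29 with tGFP and 10.77, 10.81 and 10.79 with tGFP/EBF1, and in L-1236 10.77, 10.79 and 10.70 with tGFP and 12.02, 12.16 and 12.12 with tGFP/EBF1. The groups did not overlap in either line, and L-428 with EBF1 reached about the level that L-1236 had without it. The mean effect was 1.85 ± 0.046, or 3.61-fold (limma, adjusted p = 5.42e-15). CD40, the costimulatory receptor for T-cell help, read 8.59, 8.59 and 8.40 with tGFP and 9.54, 9.62 and 9.56 with tGFP/EBF1 in L-428 and 10.14, 10.15 and 10.25 with tGFP and 10.36, 10.58 and 10.52 with tGFP/EBF1 in L-1236. Its arrays were separated widely in L-428 and by a narrow gap in L-1236, with a mean effect of 0.68 ± 0.050 (limma, adjusted p = 3.81e-08). The activation marker CD83 (0.24), the Fc receptor-like protein FCRL3 (0.15) and SLAMF7 (0.14), a receptor of the SLAM family, rose by less. FCRL3 and SLAMF7 were dim, with mean levels of 6.40 and 6.07 that lay below the median of every array. The call of FCRL3 was lost without any 1 of 6 single arrays and that of SLAMF7 without any 1 of 9, with the adjusted p reaching 0.0854 and 0.103 (limma). Of 28 B-cell surface proteins 7 rose and 1 fell, 5 were higher members and 0 lower ones, and the median effect was 0.038. The counts were 7 and 3 without both arrays that stand apart. Over all 18404 genes, with 1 row each, 4.48% rose and 4.78% fell, 2.39% were higher and 2.24% lower members, and the median effect was 0.0072.

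In the B-cell receptor pathway the members were CD79A, LCP2 and DAPP1. CD79A, the signalling alpha chain that pairs with CD79B in the receptor, read 6.92, 6.97 and 6.98 with tGFP and 7.19, 7.23 and 7.15 with tGFP/EBF1 in L-428 and 7.07, 7.01 and 6.92 with tGFP and 8.14, 8.15 and 8.26 with tGFP/EBF1 in L-1236. All EBF1 arrays were above all controls, but the rise was small in L-428 (0.23) and large in L-1236 (1.18). The mean effect of CD79A was 0.71 ± 0.043 (limma, adjusted p = 3.05e-09). The adaptor LCP2, or SLP-76, rose by similar amounts in L-428 (0.54) and L-1236 (0.55), and the adaptor DAPP1, which binds phosphoinositides, rose by 0.34 on average. CD79B rose by 0.16 on average (0.056 in L-428 and 0.26 in L-1236) without being a member. Of 19 genes of the receptor and its signalling 5 rose and 2 fell (CD22, an inhibitory co-receptor, and PRKCB, a protein kinase C), with 3 higher and 0 lower members and a median of 0.0054. When both arrays that stand apart were left out, 5 rose and 4 fell. Known early B-cell targets of EBF1 numbered 22, of which 5 rose and 0 fell: CD79A, CD40, LEF1, CD53 and CD79B. The counts were 5 and 1 without both arrays that stand apart, and 4 and 0 after median centring. CD79A, CD79B, CD40 and LEF1 are also counted in the receptor, surface protein or transcription factor lists, so these lists are not separate observations. The median of the 22 targets was 0.053.

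Among B-cell transcription factors, IRF8, which acts in germinal centre and myeloid cells, rose by 0.34 ± 0.054 (limma, adjusted p = 0.000347), and LEF1, the nuclear partner of beta-catenin, by 0.26 ± 0.044 (limma, adjusted p = 0.000591). IRF8 read 10.20, 10.09 and 9.83 with tGFP and 10.44, 10.54 and 10.52 with tGFP/EBF1 in L-428 and 8.19, 8.27 and 8.30 with tGFP and 8.47, 8.51 and 8.44 with tGFP/EBF1 in L-1236. The EBF1 arrays were higher in both lines, and the controls of L-428 were themselves above all L-1236 arrays. Of 21 such factors 5 rose and 0 fell, 2 were higher members, and the median was 0.072. The counts were 5 and 1 without both arrays that stand apart. Separation in opposite directions was seen in 3 of the 21, against 480 of all 18404 genes. NOTCH1, a receptor listed here as an antagonist of the B-cell programme, also rose, by 0.15 in L-428 and 0.65 in L-1236. It was the 1 member among 13 antagonists, of which 3 rose and 1 fell.

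SEMA7A and the genes of its receptors moved in opposite directions. SEMA7A is a semaphorin anchored in the cell membrane, PLXNC1 is its plexin receptor, and ITGB1 is a subunit of the integrins that also bind it. SEMA7A read 7.55, 7.51 and 7.64 with tGFP and 8.86, 8.92 and 8.86 with tGFP/EBF1 in L-428 and 9.46, 9.41 and 9.41 with tGFP and 10.80, 10.88 and 10.79 with tGFP/EBF1 in L-1236. No EBF1 array came near the controls of its line, and the mean effect of 1.35 ± 0.041, or 2.55-fold, was nearly the same in both lines at 1.31 and 1.40 (limma, adjusted p = 9.78e-14). PLXNC1 read 9.57, 9.54 and 9.32 with tGFP and 9.24, 9.19 and 9.24 with tGFP/EBF1 in L-428 and 8.40, 8.46 and 8.52 with tGFP and 7.46, 7.62 and 7.60 with tGFP/EBF1 in L-1236, so that every EBF1 array lay below every control of its line. Its mean effect was -0.58 ± 0.049 (limma, adjusted p = 2.35e-07). ITGB1 fell by less (-0.38 ± 0.062; limma, adjusted p = 0.000401), and PLXNA3, another plexin, rose by 0.28. Of 29 semaphorins, plexins and their partners 3 rose and 4 fell, 2 were higher and 2 lower members, and the median was 0.022.

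A ligand and its receptor also diverged among the chemokines. CCL22, the chemokine that attracts T cells carrying CCR4, read 7.04, 7.10 and 7.05 with tGFP and 8.11, 8.08 and 8.09 with tGFP/EBF1 in L-428 and 8.66, 8.65 and 8.62 with tGFP and 10.23, 10.01 and 10.29 with tGFP/EBF1 in L-1236. The groups were far apart in both lines, and the mean effect was 1.28 ± 0.047, or 2.43-fold (limma, adjusted p = 2.28e-12). CCR4 itself read 11.54, 11.68 and 11.25 with tGFP and 11.24, 11.19 and 11.21 with tGFP/EBF1 in L-428 and 9.45, 9.48 and 9.62 with tGFP and 8.41, 8.46 and 8.46 with tGFP/EBF1 in L-1236. All EBF1 arrays were lower than the controls of their line, though replicate 3 of the L-428 controls lay close to the EBF1 arrays, and the mean effect was -0.67 ± 0.059 (limma, adjusted p = 3.05e-07). CCL1, a ligand of CCR8, fell (-0.61 in L-428 and -0.31 in L-1236), and so did CCL5, a chemokine that attracts T cells (-0.41 and -0.47). S1PR1, the sphingosine-1-phosphate receptor that guides lymphocyte exit from tissue, rose by 0.53. Of 26 chemokines 3 rose and 4 fell, with 1 higher and 2 lower members, and of 21 chemokine and lipid receptors 2 rose and 1 fell, with 1 member each way.

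**Figure D3:**
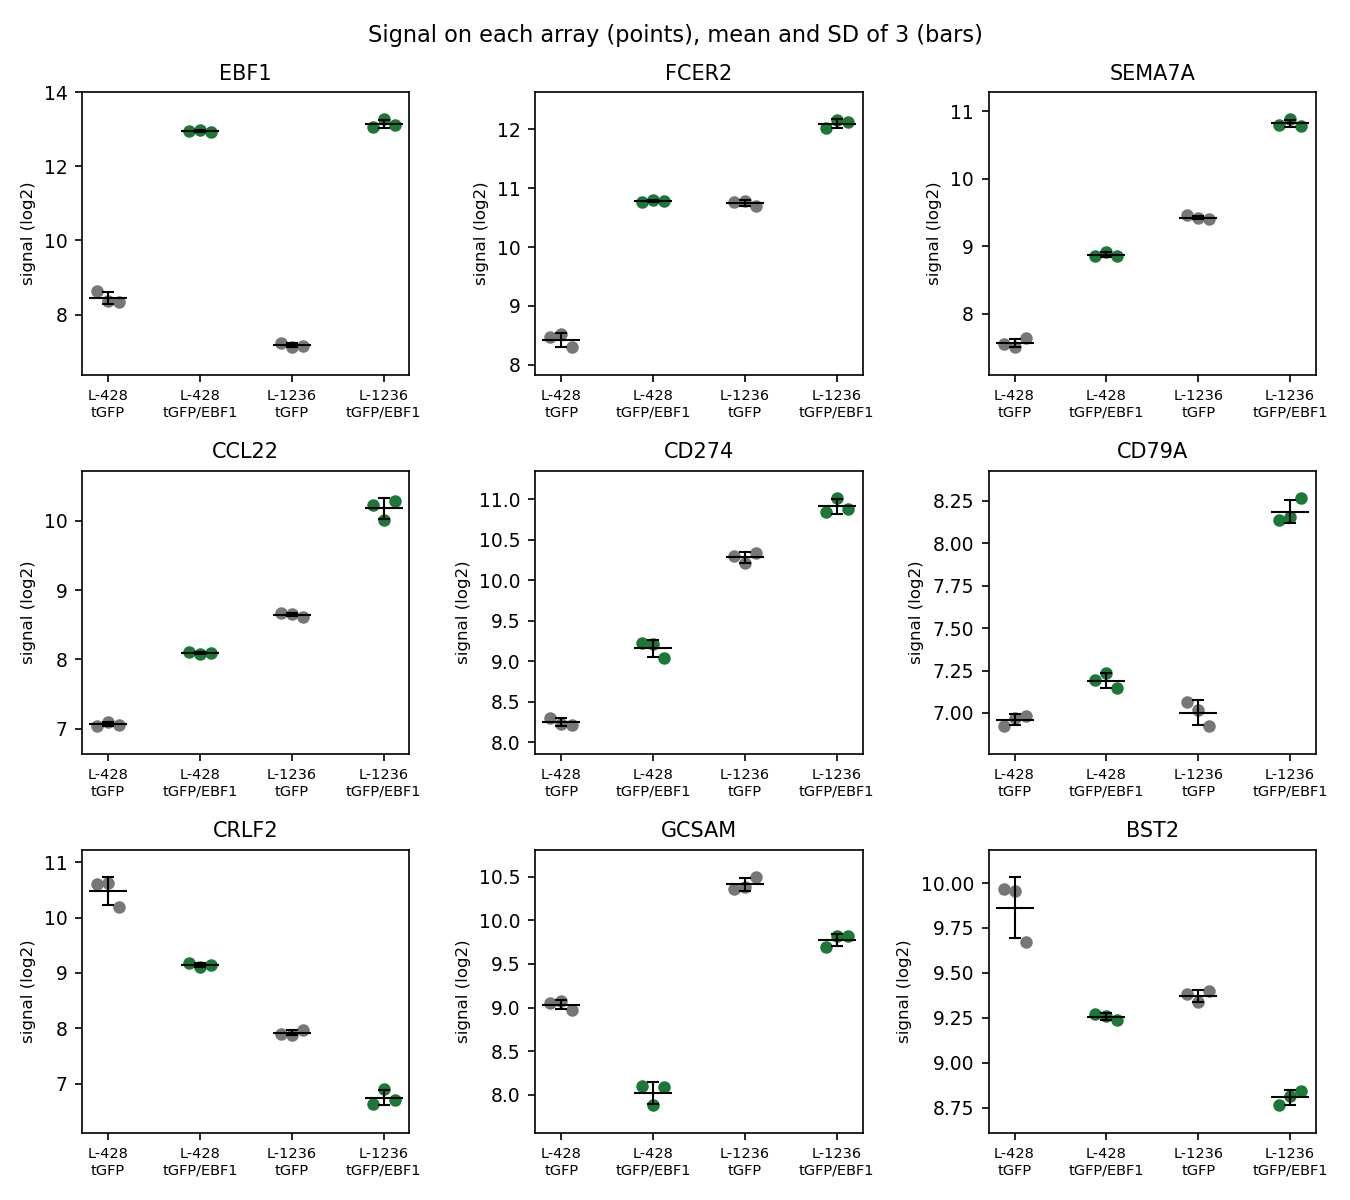
Log2 signal of 9 members on each of the 12 arrays (grey, tGFP; green, tGFP/EBF1), with the mean and SD of 3 arrays as black bars. The arrays of both groups are separated in each line for all 9 genes, and the gap is small for CD79A in L-428, where the arrays with EBF1 start at 7.15 and the controls end at 6.98.

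The largest fall of the mean effect was that of a cytokine receptor. CRLF2, a receptor chain for the cytokine TSLP, which pairs with the IL-7 receptor alpha chain, read 10.62, 10.63 and 10.20 with tGFP and 9.19, 9.12 and 9.14 with tGFP/EBF1 in L-428 and 7.90, 7.88 and 7.97 with tGFP and 6.63, 6.89 and 6.71 with tGFP/EBF1 in L-1236. Every EBF1 array lay below the controls of its line, and the L-1236 controls were already below all L-428 arrays. The mean effect was -1.25 ± 0.066 (limma, adjusted p = 5.98e-10) and was -1.30 without both arrays that stand apart. IL2RB, a signalling chain shared by the IL-2 and IL-15 receptors, read 10.01, 10.04 and 9.62 with tGFP and 9.21, 9.24 and 9.29 with tGFP/EBF1 in L-428 and 8.11, 7.99 and 7.996 with tGFP and 7.38, 7.29 and 7.38 with tGFP/EBF1 in L-1236. The groups did not overlap, and the effects were nearly equal at -0.64 and -0.68. IL3RA, the alpha chain of the IL-3 receptor, fell as well (-0.30 in L-428 and -0.89 in L-1236). IL7, the lymphocyte growth factor, read 6.63, 6.52 and 6.52 with tGFP and 6.82, 6.78 and 6.83 with tGFP/EBF1 in L-428 and 6.84, 6.68 and 6.73 with tGFP and 7.97, 8.21 and 8.20 with tGFP/EBF1 in L-1236, where the rise was much larger (0.81 ± 0.050 on average; limma, adjusted p = 3.4e-09).

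Of 56 cytokines and cytokine receptors 6 rose and 9 fell, 3 were higher and 9 lower members, and the median was -0.0046. Higher and lower members made up 5.36% and 16.1% of the list, against 2.39% and 2.24% of all 18404 genes. Without both arrays that stand apart 8 rose and 14 fell, and the median was above 0. Lower members named after their values were seen were CSF1 (-0.47), the growth factor of macrophages, IL13 (-0.34), a growth factor of Hodgkin cells, IL4R (-0.21), the receptor chain used by IL-4 and IL-13, and TGFBR1 (-0.21), a receptor for TGF-beta. CSF1R, the receptor for CSF1, rose by 0.28 ± 0.046 (limma, adjusted p = 0.000358), and EBI3, a subunit of IL-27 and IL-35, by 0.32. The remaining 2 lower members, IL12A and IL9R, did not pass the test.

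Ligands of inhibitory T-cell receptors were among the higher members. CD274, which encodes PD-L1, the ligand of the inhibitory receptor PD-1, read 8.31, 8.22 and 8.22 with tGFP and 9.22, 9.22 and 9.04 with tGFP/EBF1 in L-428 and 10.30, 10.21 and 10.34 with tGFP and 10.85, 11.01 and 10.88 with tGFP/EBF1 in L-1236. The groups did not overlap in either line, and the mean effect was 0.77 ± 0.048 (limma, adjusted p = 3.77e-09). TNFRSF14, or HVEM, the receptor that engages BTLA on T cells, rose by 0.30. PDCD1LG2, the other PD-1 ligand, rose by 0.31 and was no member. Of 17 PD-1 ligand and B7 family genes 4 rose and 1 fell, with 2 higher and 0 lower members and a median of -0.0090, which was above 0 without both arrays that stand apart. Among 26 marker genes of Hodgkin and Reed-Sternberg cells 8 rose and 4 fell, with 4 higher and 2 lower members and a median of 0.053, and without both arrays that stand apart 8 rose and 7 fell. The falling members were CCL5 and IL13.

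The signalling lists were mixed. SOCS3, a feedback inhibitor of JAK-STAT signalling, rose by 0.19, while PIM2, a kinase induced by STAT5, was a member with a mean effect of 0.19 that did not pass (limma, adjusted p = 0.0524). PIM2 passed after quantile normalization (limma, adjusted p = 0.0113). In the JAK-STAT list 6 of 21 genes rose and 1 fell. Among NF-kappaB subunits and targets, IRF1 (0.41), an interferon regulatory factor, and REL (0.24, named after its value was seen), a subunit of NF-kappaB, rose, and TRAF3 (-0.25), a brake on the alternative pathway, fell. Of 28 genes of that list 7 rose and 4 fell, and 7 rose and 9 fell without both arrays that stand apart. FOS, a subunit of the AP-1 transcription factor, read 8.92, 8.83 and 8.39 with tGFP and 9.82, 9.72 and 9.71 with tGFP/EBF1 in L-428 and 7.32, 7.35 and 7.10 with tGFP and 7.49, 7.49 and 7.50 with tGFP/EBF1 in L-1236. All EBF1 arrays were above the controls of their line, with a wide gap in L-428 and a small one in L-1236, and the mean effect was 0.63 ± 0.071 (limma, adjusted p = 6.97e-06). The MAP kinase phosphatases DUSP7 (0.90) and DUSP2 (0.29) and the immediate early gene IER2 (0.24) rose, as did MKNK2 (0.78), a kinase activated by MAP kinases. SPRED2, an inhibitor of the pathway from RAS, fell (-0.38 in L-428 and -0.55 in L-1236). Of 27 immediate early and feedback genes 4 rose and 3 fell, and 4 rose and 6 fell without both arrays that stand apart.

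Antigen processing and interferon genes split within their lists. CTSS (0.51), the protease cathepsin S that trims the invariant chain, and IFI30 (0.46), a lysosomal thiol reductase, rose, and no other gene among 21 of MHC class II and lysosomal processing did so, while 2 fell. The lowest mean effect of the list, -0.63, was larger in size than either rise. Lower members numbered 0, and the list median was -0.027. In that list 3 rose and 8 fell without both arrays that stand apart. PSMB9, an immunoproteasome subunit, rose by 0.25. The type I interferon list of 30 genes had 3 rises and 7 falls, with 1 higher and 3 lower members and a median of -0.046. BST2, or tetherin, which holds virus particles at the cell surface, read 9.96, 9.96 and 9.67 with tGFP and 9.27, 9.26 and 9.24 with tGFP/EBF1 in L-428 and 9.38, 9.34 and 9.40 with tGFP and 8.76, 8.81 and 8.84 with tGFP/EBF1 in L-1236. The EBF1 arrays were lower throughout, and the effects were alike at -0.61 and -0.57. NMI, an interferon-induced protein that binds STAT factors, fell (-0.69 on average), as did the antiviral protein IFIT1 (-0.30). SAMD9L, another interferon-induced gene, rose by 0.61 and 0.62.

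Among 26 integrins and adhesion molecules 3 rose and 5 fell, with 1 higher and 3 lower members, and without both arrays that stand apart 4 rose and 8 fell. SELPLG, which encodes the selectin ligand PSGL-1, read 8.85, 8.89 and 8.56 with tGFP and 8.38, 8.32 and 8.34 with tGFP/EBF1 in L-428 and 8.38, 8.30 and 8.25 with tGFP and 7.73, 7.69 and 7.87 with tGFP/EBF1 in L-1236, with no overlap in either line. Its mean effect was -0.48 ± 0.055 (limma, adjusted p = 7.45e-06). ITGAV, the alpha chain of vitronectin receptors, fell (-0.33), as did the matrix protein FN1 of the stromal list (-0.34). ITGB3, the beta chain that pairs with ITGAV, was a higher member at 0.13 and did not pass (limma, adjusted p = 0.0596). TNFSF10, the death ligand TRAIL, fell (-0.29), and BMF, a BH3-only protein that promotes apoptosis, rose by 0.23 in L-428 and 0.98 in L-1236. Among 29 TNF ligands and receptors 4 rose and 3 fell, and in the BCL2 family and death receptor list of 21 genes there were 3 rises and 0 falls. Without both arrays that stand apart 4 rose and 8 fell, and 3 rose and 5 fell, in those lists.

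Genes of mitosis and of DNA replication were counted as separate lists. Of 22 cell division genes 1 rose and 6 fell, 0 were higher and 5 lower members, and the median was -0.11. Lower members made up 22.7% of the list, against 2.24% of all 18404 genes, of which 2.39% were higher members. Without both arrays that stand apart 1 rose and 9 fell, and after median centring 1 rose and 3 fell. The spindle checkpoint kinase BUB1 read 11.28, 11.36 and 11.14 with tGFP and 10.97, 10.84 and 10.89 with tGFP/EBF1 in L-428 and 10.10, 10.15 and 10.21 with tGFP and 9.96, 10.09 and 10.05 with tGFP/EBF1 in L-1236. Its EBF1 arrays were lower in both lines, by a narrow gap in L-1236. The kinesins KIF20A (-0.27) and KIF23 (-0.19) and the spindle midzone protein PRC1 (-0.20) fell by similar amounts, and the call of KIF23 was lost after median centring (limma, adjusted p = 0.0719). In L-1236 by itself BUB1, KIF20A, KIF23 and PRC1 did not pass (limma, adjusted p between 0.0629 and 0.350), and KIF23 did not pass in L-428 either (limma, adjusted p = 0.126). The list median was -0.19 in L-428 and -0.073 in L-1236, and the highest mean effect of the list was 0.27. In the list of 26 DNA replication and G1/S genes there were 4 rises and 0 falls, with 3 higher members and a median of 0.053. The members were CDK2 (0.37), the kinase of entry into S phase, CCND1 (0.24), which encodes cyclin D1, and MCM10 (0.23), a replication initiation factor.

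Of 17 germinal centre genes 1 was a higher member (5.88%) and 1 a lower one (5.88%), and of 15 plasma cell genes 1 was a higher (6.67%) and 2 were lower members (13.3%). GCSAM, a signalling adaptor of germinal centre B cells, read 9.05, 9.07 and 8.97 with tGFP and 8.10, 7.88 and 8.09 with tGFP/EBF1 in L-428 and 10.36, 10.38 and 10.49 with tGFP and 9.70, 9.82 and 9.82 with tGFP/EBF1 in L-1236. The EBF1 arrays were well below the controls in both lines, and the mean effect was -0.82 ± 0.049 (limma, adjusted p = 2.57e-09). ELL3, an elongation factor, rose by 0.24, and in the germinal centre list 2 rose and 1 fell. The plasma cell genes SEC11C (-0.39), a signal peptidase subunit, and FKBP11 (-0.14), a folding factor, fell, and SLAMF7, described above, was the higher member. The call of FKBP11 was lost without any 1 of 7 single arrays (limma, adjusted p of up to 0.0846) and after median centring (limma, adjusted p = 0.0768). In the plasma cell list 2 rose and 4 fell, and 2 rose and 1 fell after median centring. RFTN1, a lipid-raft protein that supports B-cell receptor signalling, read 9.24, 9.25 and 9.03 with tGFP and 8.07, 8.20 and 8.18 with tGFP/EBF1 in L-428 and 9.41, 9.43 and 9.51 with tGFP and 8.89, 8.98 and 8.90 with tGFP/EBF1 in L-1236, again without overlap (-0.77 ± 0.048; limma, adjusted p = 3.77e-09). A second, dimmer row of RFTN1 did not pass (0.019; limma, adjusted p = 0.885). NCF4, a subunit of the phagocyte NADPH oxidase, fell (-0.60 in L-428 and -1.01 in L-1236).

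Among transporters and metabolic genes, SLC22A4 had the largest mean effect. SLC22A4, a transporter of organic cations and ergothioneine, read 7.29, 7.26 and 7.27 with tGFP and 8.10, 7.95 and 8.05 with tGFP/EBF1 in L-428 and 7.24, 7.37 and 7.28 with tGFP and 9.35, 9.80 and 9.68 with tGFP/EBF1 in L-1236. Both lines started near the same level and were separated, and the rise was larger in L-1236 (1.54 ± 0.061 on average; limma, adjusted p = 6.63e-12). SCARB1, the receptor for high-density lipoprotein, rose by 0.82 and 0.72, and CTNS, the lysosomal cystine exporter, by 0.80 and 0.61. MRAP2, which assists melanocortin receptors, rose by 1.81 in L-428 and 0.20 in L-1236. In cholesterol synthesis, LSS (0.44), the lanosterol synthase, rose, whereas MVD (-0.21), a mevalonate pathway enzyme, and SREBF2 (-0.19), the transcription factor of the pathway, fell. The call of SREBF2 was lost after median centring (limma, adjusted p = 0.0757). Of 13 genes 3 rose and 3 fell, 2 rose and 7 fell without both arrays that stand apart, and 1 rose and 1 fell after median centring. SLC1A4 (-0.32), a neutral amino acid transporter, ARG2 (-0.67), the mitochondrial arginase, and the hypoxia-inducible gene ANKRD37 (-0.38) fell. ANKRD37 fell mainly in L-428 (-0.63) and did not pass by itself in L-1236 (-0.13, limma, adjusted p = 0.223). The highest mean effect among hypoxia and glycolysis genes was 0.41. The 19 unfolded protein and amino acid stress genes held no member, with DDIT3 (0.25) and CHAC1 (-0.23) the passing genes of largest effect each way, and 2 rose and 3 fell (2 and 8 without both arrays that stand apart, 1 and 1 after median centring). Of 18 ribosomal protein genes 0 passed (limma) and 0 were members.

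The lists not yet counted held 1 or 2 members each. The number of genes that rose and fell was 2 and 1 among 23 T and NK cell genes, 1 and 2 among 23 myeloid and dendritic cell genes, and 1 and 2 among 17 stromal, endothelial and epithelial genes. It was 2 and 4 among 22 hypoxia and glycolysis genes, 3 and 2 among 17 transporters and channels, and 1 and 1 among 10 MHC class I and immunoproteasome genes. Leaving out both arrays that stand apart gave 3 and 3 for the myeloid list, 2 and 6 for hypoxia, 3 and 5 for transporters and 2 and 2 for MHC class I. After median centring hypoxia genes gave 1 and 2, and transporters 3 and 1. Over all genes, with 1 row each, 824 rose and 879 fell, against 1167 and 1532 without both arrays, 1475 and 1231 after quantile normalization and 621 and 518 after median centring. Medians of the 32 lists lay between -0.11 and 0.072. Without both arrays that stand apart the medians of 5 lists changed sign, each of which lay within 0.0098 of 0 over all arrays.

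**Figure D4:**
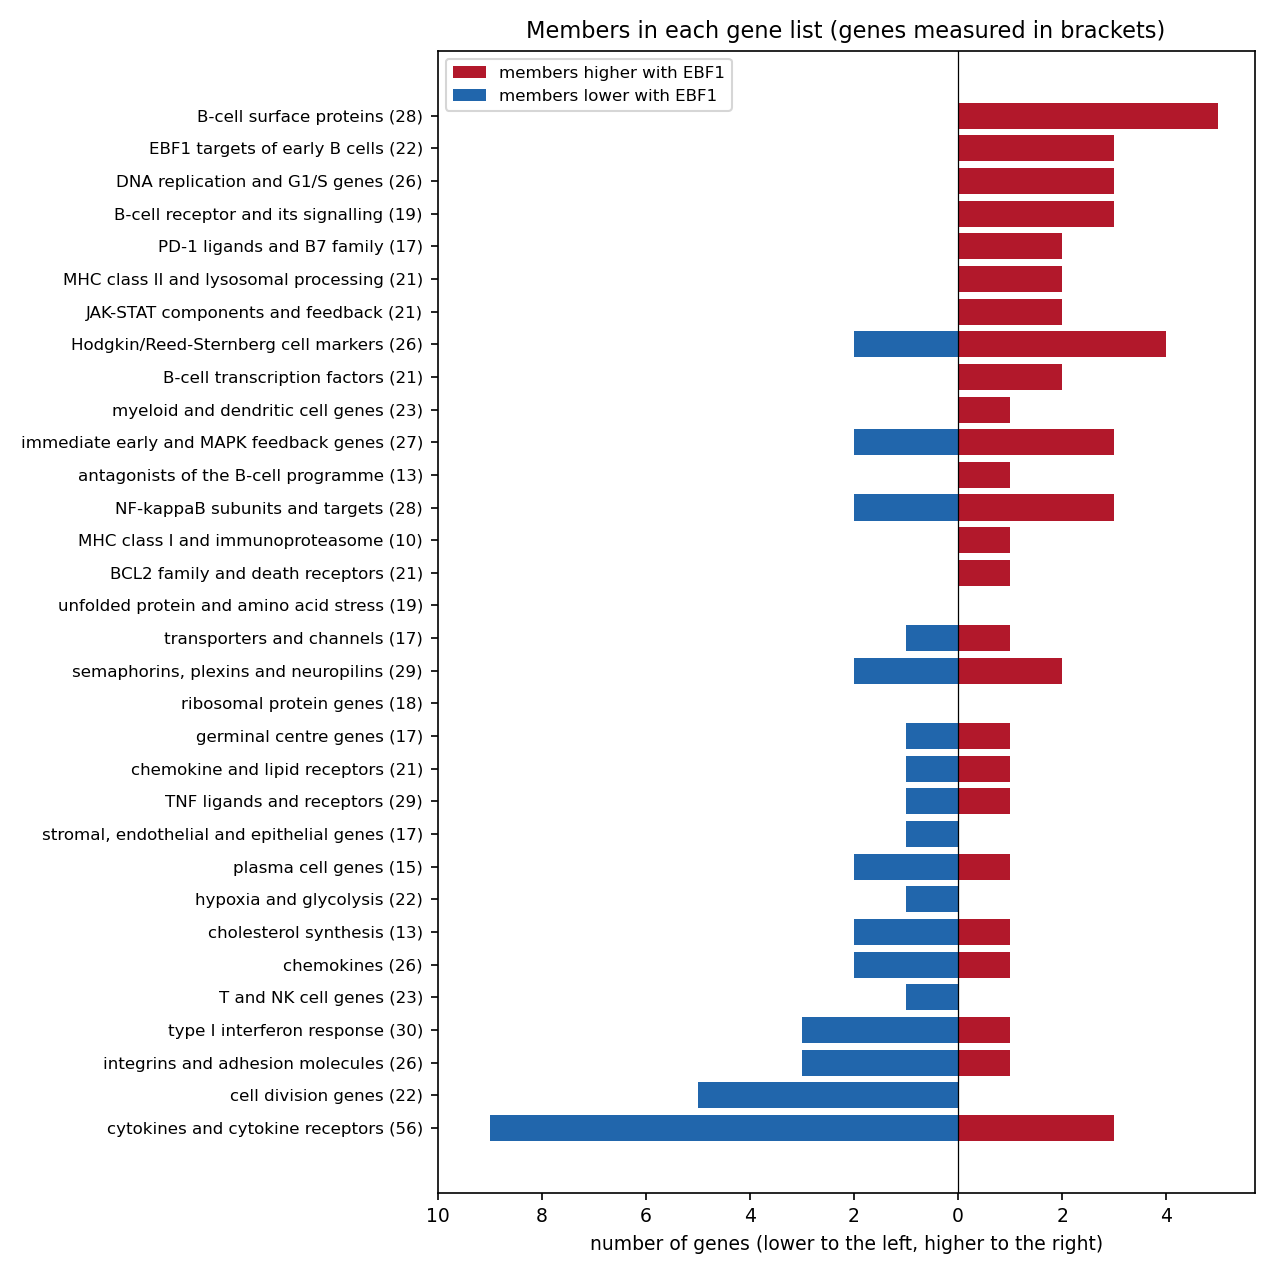
Number of members in each gene list, with higher members to the right (red) and lower members to the left (blue), and the number of genes measured in brackets. Cytokines and their receptors held 9 lower and 3 higher members of 56 genes, cell division genes 5 lower and 0 higher of 22, and B-cell surface proteins 5 higher and 0 lower of 28. Over all 18404 genes 2.39% were higher and 2.24% lower members. The lists were chosen with earlier results of these data known.

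Other members with large mean effects fall in no list above. ZHX2 (0.70), a homeobox repressor, CCDC126 (0.81) and NSMF (0.75), a protein that signals from synapse to nucleus, rose. SMC6 (-0.73), a subunit of a chromosome-maintenance complex, ATAD1 (-0.71), which extracts proteins from mitochondrial membranes, the tetraspanin TSPAN2 (-0.71), TMBIM4 (-0.71), ANKRD26 (-0.68), MTARC2 (-0.67), a mitochondrial reductase, and TSC22D3 (-0.67), the glucocorticoid-induced leucine zipper, fell. TSC22D3 read 9.86, 9.96 and 9.69 with tGFP and 9.39, 9.32 and 9.32 with tGFP/EBF1 in L-428 and 10.69, 10.68 and 10.64 with tGFP and 9.82, 9.82 and 9.80 with tGFP/EBF1 in L-1236, and the groups were separated in both.

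**Figure D5:**
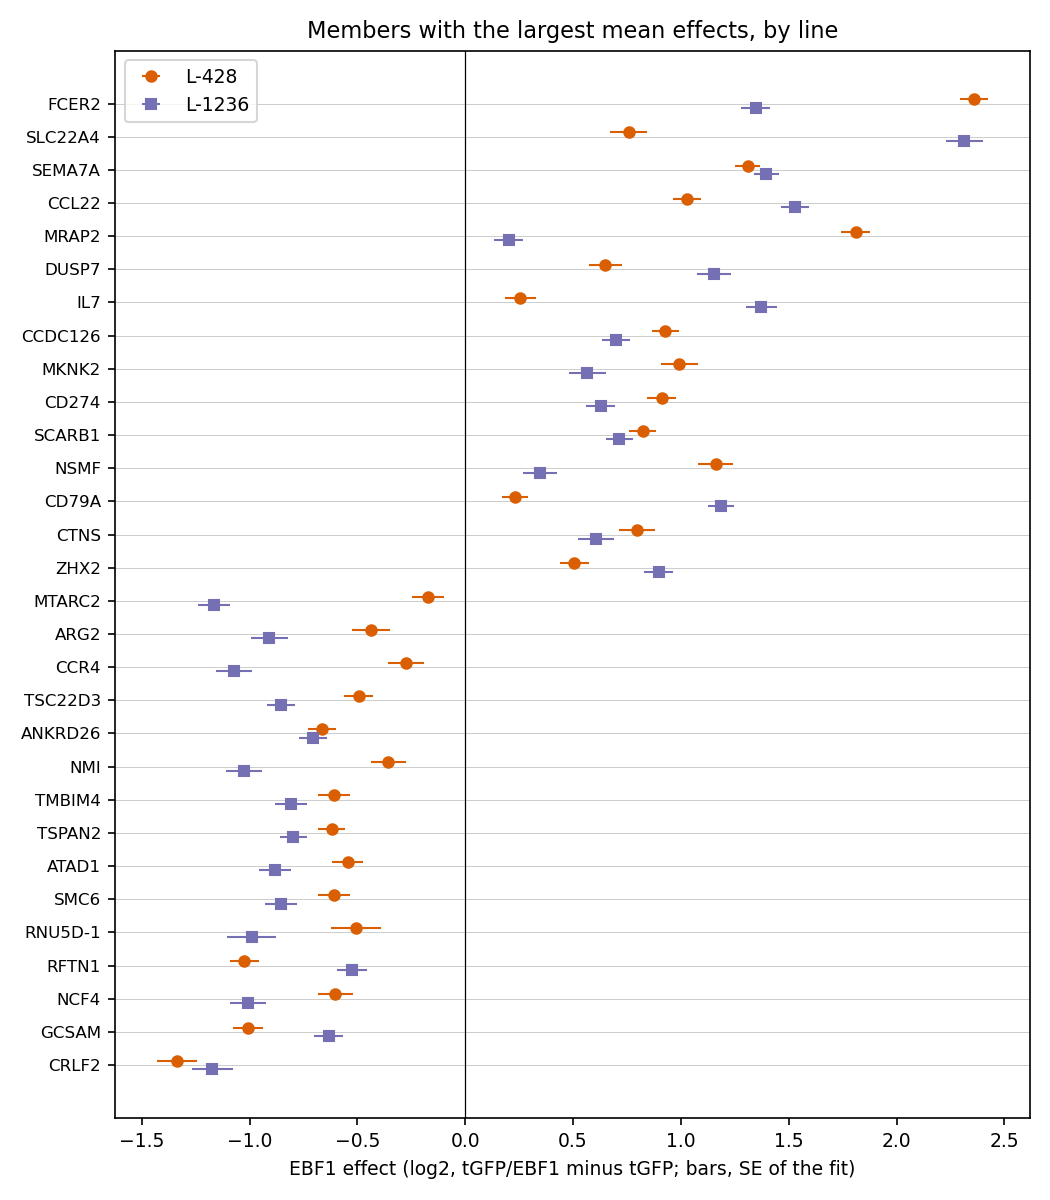
EBF1 effect (log2, tGFP/EBF1 minus tGFP) in L-428 (orange circles) and L-1236 (violet squares) for the 15 members with the largest mean effect in each direction, EBF1 left out, with SEs of the limma fit as bars. SEMA7A, SCARB1, ANKRD26 and CRLF2 moved about equally in both lines, whereas MRAP2, IL7, CD79A and MTARC2 moved mainly in one.

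Whether the effect of a member differed between the lines was tested in the same fit. The difference passed in 1061 of all rows (5.16%), in 51 of 472 higher members (10.8%) and in 31 of 455 lower members (6.81%). Among those higher members the effect was larger in L-1236 in 35 and in L-428 in 16. Among those lower members the fall was larger in L-1236 in 26 and in L-428 in 5. MRAP2 differed by 1.61 (L-428 minus L-1236; limma, adjusted p = 5.17e-09), FCER2 by 1.01 and CDC20B by 0.83, all with the larger rise in L-428. SLC22A4 (-1.56), IL7 (-1.12), MAPKBP1 (-1.01), a scaffold of MAP kinases, and CD79A (-0.95; limma, adjusted p = 1.79e-06) rose more in L-1236. The starting level also differed: control arrays of both lines were apart in 9836 rows (47.9%; limma), in 329 higher members (69.7%) and in 367 lower members (80.7%). Members were brighter than other rows. With the rows divided by level into 4 parts of equal size, members made up 1.07%, 2.94%, 6.76% and 7.28%, dimmest first. Whether brightness bears on these shares was not tested.

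The edge of the rule can be read from single rows. SLFN11, a restriction factor of the Schlafen family, was just inside, at 10.25, 10.24 and 9.96 with tGFP and 10.37, 10.25 and 10.39 with tGFP/EBF1 in L-428, and its call was lost after median centring (limma, adjusted p = 0.0634). BANK1, a B-cell scaffold protein, was just outside, at 5.92, 5.94 and 5.87 with tGFP and 5.94, 6.17 and 6.09 with tGFP/EBF1. The olfactory receptor row OR2AK2 and RNU5D-1 were the other members with the smallest gaps, and SEMA4B and HPS1 the other rows just outside. A gap of at least 0.1 in both lines held in 143 higher and 126 lower members. After median centring of the arrays 463 rows were higher and 244 lower members, a share of 65.5% higher against 50.9% in the values as deposited.

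Rows separated in opposite directions show what the rule left out. SLC26A4, an anion exchanger, read 7.41, 7.23 and 7.11 with tGFP and 9.09, 9.02 and 9.04 with tGFP/EBF1 in L-428 and 9.82, 9.87 and 9.89 with tGFP and 8.46, 8.65 and 8.48 with tGFP/EBF1 in L-1236, so it was higher in one line and lower in the other. TNFRSF9, the costimulatory receptor 4-1BB, had effects of 0.37 in L-428 and -0.86 in L-1236, and LRP1, an endocytic receptor, -0.31 and 1.43.

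Small RNA genes were counted by kind. Of 173 rows for single miRNA genes 0 were higher members and 4 were lower (2.31%). Over all 18404 genes 2.39% were higher and 2.24% lower members, so the lower share was about that of all genes. The row of MIR21 had a mean effect of -0.46 ± 0.060 (limma, adjusted p = 4.24e-05), MIRLET7G of -0.30 and MIR30E of -0.22, and all 3 fell. MIR330 was a member at -0.15 and did not pass (limma, adjusted p = 0.0739). The array reads the transcript of the gene, not the mature miRNA, and cannot tell the arms of the hairpin apart. The 5p forms of the 3 that fell are shown, and 3p forms are left out; the sequences are from the RefSeq table (GRCh38.p14) with the seed, bases 2 to 8, in capitals, and no seed is shared among those printed.
hsa-miR-21-5p: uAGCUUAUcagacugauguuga
hsa-let-7g-5p: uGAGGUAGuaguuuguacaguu
hsa-miR-30e-5p: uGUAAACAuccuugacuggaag
Of 20 snRNA genes 4 were members (20%; 3 higher and 1 lower). The lower one was RNU5D-1 (-0.75), a spliceosomal RNA with near-identical copies, so its value is uncertain. Long noncoding RNA genes held 12 higher and 11 lower members of 626 (3.67%) by the RefSeq biotype, against 421 higher and 381 lower of 16897 protein-coding genes (4.75%).

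Neighbouring genes were also counted in the RefSeq gene order. Of 14982 adjacent pairs of protein-coding genes, 49 (0.327%) had both genes among the members. Of the 16884 measured coding genes in that order 802 were members (4.75%). The share for unrelated neighbours was not computed, so the counts are a description and do not show clustering. In 31 pairs both moved the same way, 18 higher and 13 lower, and in 18 the directions were opposite. RHOG, a small GTPase, and STIM1, the calcium sensor of the endoplasmic reticulum, rose by 0.51 and 0.44. KMO, an enzyme of tryptophan breakdown, and OPN3, an opsin, rose by 0.47 and 0.53. IL2RB and C1QTNF6 were both lower members, the latter at -0.13 without passing the test (limma, adjusted p = 0.0807). The vicinity of TRPV1, SHPK and CTNS held 3 higher members in a row.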

How the data were processed

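RNA from 12 samples, 3 in each of 4 groups, was read on whole-transcript arrays. The deposited table holds log2 values made by the authors, 1 per array and row. The sources used here do not give their summarisation, normalisation, log base or array build. A base of 2 was taken because the values reach 14.27. No probe signal over background was used.

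The platform annotation gave 1 symbol to 19158 of 32321 rows, several to 1388 and none to 11775. Genes were named from rows with 1 symbol, EBF1 excepted, and lists used the brightest row of each of 18404 genes. Gene IDs of 18376 matched the RefSeq table (GRCh38.p14), and 14230 genes had a promoter entry.

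No scaling was added. The fit used limma 3.58.1 in R 4.3.3 (4 group means, lmFit, then eBayes, with 8 residual degrees of freedom and 9.98 from the prior), with Benjamini-Hochberg adjustment within each contrast. The median SE of the mean effect was 0.049. The fit was tested on simulated data. Figures used Python 3.11.15 and matplotlib 3.10.9.

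The members and the 32 gene lists (649 genes measured) were chosen with earlier results of these data known. By rule, 101 genes were named: the markers, the 15 largest passing members each way, up to 4 members per list, rows at the edge of the rule, and the largest differences between lines and opposite effects. Alternatives were quantile normalization, median centring, every row or 1 row per symbol, a filter on dim rows, trend and robust variance, array weights, an additive model, a replicate block, left-out arrays and stricter limits. Gene-by-gene array weights, and the list counts without both arrays that stand apart or after scaling, were added after seeing the data.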

Additional observations from a re-analysis of the deposited data

Results flagged for a closer look

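The EBF1 effect differed between the lines in 34 of the named genes (difference as L-428 minus L-1236, log2; limma, adjusted p of 0.05 or less over all rows with a symbol). The largest adjusted p among them was 0.0484, for MKNK2.

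Among members that rose, the rise was larger in L-428 for MRAP2 (1.61), FCER2 (1.01), CDC20B (0.83), NSMF (0.82), FOS (0.80), CD40 (0.74) and MKNK2 (0.43). It was larger in L-1236 for SLC22A4 (-1.56), EBF1 (-1.46), IL7 (-1.12), MAPKBP1 (-1.01), CD79A (-0.95), BMF (-0.74), DUSP7 (-0.50), NOTCH1 (-0.50), CCL22 (-0.50) and ZHX2 (-0.39).

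Among members that fell, the fall was larger in L-1236 for MTARC2 (0.99), CCR4 (0.80), NMI (0.67), PLXNC1 (0.65), IL3RA (0.59), ARG2 (0.47) and TSC22D3 (0.36). It was larger in L-428 for RFTN1 (-0.50), ANKRD37 (-0.50) and GCSAM (-0.38).

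Outside the members, the effects had opposite signs for SLC26A4 (3.14), DNAI3 (1.48), TNFRSF9 (1.23), LRP1 (-1.73), QSOX1 (-1.24) and NIM1K (-1.15), which were named for that pattern. DDIT3 differed by 0.43.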

How the results depend on the processing

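Of the 101 named genes, none that passed in the main fit or in an alternative changed direction between them. Sign changes of genes that passed in neither were not counted, and the filter on dim rows held 99 of the 101. Calls were lost mainly for small effects (FCRL3, SLAMF7, FKBP11, KIF23, SREBF2, SLFN11, SEMA4B, HPS1, BANK1 and QSOX1). The additive model, which puts the difference between lines in the residual, also lost SLC26A4, LRP1, DNAI3 and TNFRSF9. Counts moved more. Quantile normalization gave 1596 rows higher by the mean effect, 729 higher and 703 lower members and 1865 differences between lines. Median centring gave 578 rows lower, 244 lower members and 599 differences. Of the members as reported, 90.7% of the higher and 83.3% of the lower met the rule after quantile normalization, and 79.2% and 49.0% after median centring. Array weights gave 2991 higher and 3389 lower rows, from an estimate that stopped before full convergence, and 2104 and 2658 when estimated gene by gene. The additive model gave 568 and 639, and an adjusted p of 0.01 gave 535 and 538 (limma). A gap of at least 0.1 left 143 higher and 126 lower members. The core motif stood in 31.4% of member promoters, against 2.31% for the palindrome.

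Leaving out each array in turn gave 673 to 1066 higher and 726 to 1769 lower rows, and 531 to 696 higher and 496 to 1210 lower members. The highest lower counts, 1769 rows and 1210 members, came without replicate 3 of L-428 tGFP. Without both arrays that stand apart 1272 rows were higher and 1729 lower, with 937 and 1345 members. Same-numbered arrays did not deviate together in every pair (r between -0.21 and 0.28). Arrays of different number were not compared, so these values cannot tell whether the numbers pair the samples. With a replicate block 941 rows were higher and 1069 lower. The cause of these shifts was not tested. With 3 arrays per group and no background signal, small effects and dim rows are least certain.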
